A study of Mus musculus with 34 samples.

Results

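The 10 genes described here are antioxidant and detoxification genes known as targets of the transcription factor NRF2: Srxn1, Txnrd1, Prdx1, Gclc, Gclm, Slc7a11, Gsr, Nqo1, Hmox1 and Ephx1. They were named as a set of 10 among the 48526 genes of the deposited table, and all 10 passed the filter on low counts that left 18292 genes for testing. The set was named with results of these samples in view, so its counts are descriptions. Srxn1 and Ephx1, which the name of the set singles out, are treated as chosen by their differences from WT in these libraries and are given with no test. Which measured values chose the other 8 is not recorded. Against WT at day 1, the fitted log2 difference of Srxn1 was -2.24 in the Ars2 KO group. That of Ephx1 was 2.04 in the CD28 AYAA group and 2.30 in the DKI group.

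RNA was sequenced from 34 cultures of pan T cells, isolated by negative selection from spleens of C57BL/6 mice aged 6 to 12 weeks. The unstimulated group was WT D0 (2 libraries), and all other cells had been stimulated with antibodies to CD3 and CD28 and recombinant IL-2 for 24 h (day 1, D1) or 72 h (day 3, D3). Each day held WT (2 libraries), Ars2 KO (3), CD28 KO (2), DKI (3), CD28 AYAA (3) and CD28 Y170F (3), which makes 13 groups in all. ARS2 is a nuclear protein that binds the cap-binding complex of new transcripts. CD28 is the costimulatory receptor of T cells. The AYAA allele alters a proline motif in its cytoplasmic tail, and the Y170F allele alters a tyrosine motif. The series design text calls the DKI mice CD28 DKI, and the sources used here do not say which alleles they combine, nor what drives the deletion in the Ars2 KO cells. The design text calls the replicates biological. In the main fit, p-values set each difference against the spread between these samples, with 1 estimate of that spread shared by the 13 groups.

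NRF2, the product of Nfe2l2, is held at low levels by KEAP1, which hands it to a CUL3 ubiquitin ligase. Oxidants and electrophiles modify KEAP1, and NRF2 then pairs with small MAF proteins at antioxidant response elements (AREs), a site that the repressor BACH1 can also occupy. The target genes rebuild glutathione and reduced thioredoxin and neutralise quinones, heme and epoxides. In activated T cells these systems are known to buffer the oxidants made during growth and division.

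The promoters of the members were searched because a shared regulator is what defines this set. RefSeq promoters of build GRCm38.p6, each running from 250 bases before to 50 bases after a transcription start, were given for 7 of the 10 genes (9 promoters), and those of Gclc, Gsr and Hmox1 were not. The ARE core TGACNNNGC, searched on both strands, occurred in 4 of the 9 promoters (44.4%), 1 for each of 4 genes, and in 12.4% of 32851 promoters of the same length. The AP-1 motif TGANTCA, which overlaps many AREs, occurred in 2 of the 9 promoters (22.2%) and in 7.81% of all promoters. Below, capitals mark the motif, and the number after the gene name is the position of its first base from the start site. All 4 genes lie on the plus strand, and the sequences are printed 5′ to 3′ on that strand. The first and second lines hold AP-1 matches, and the others hold an ARE core read on the opposite strand.
Srxn1 -102, chr2:152105406-152105444: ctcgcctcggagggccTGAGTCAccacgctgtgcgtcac
Srxn1 -45, chr2:152105463-152105501: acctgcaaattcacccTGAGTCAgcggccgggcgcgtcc
Gclm -134, chr3:122245407-122245447: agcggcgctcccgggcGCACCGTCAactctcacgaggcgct
Prdx1 -133, chr4:116685450-116685490: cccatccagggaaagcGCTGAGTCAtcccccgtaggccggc
Txnrd1 -92, chr10:82859098-82859138: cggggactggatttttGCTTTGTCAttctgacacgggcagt

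The Prdx1 ARE core overlaps an AP-1 match that starts at -131, and a separate AP-1 match starts at -237. Srxn1 also has an ARE core that starts at 28, just after its start site. The Txnrd1 match lies inside the annotated gene, before 1 of its 3 listed starts. The stretches printed for Srxn1, Gclm and Prdx1 lie upstream of the annotated genes. No match was present in the windows of Nqo1, Slc7a11 and Ephx1, which says only that these letters are not in those windows. A match is a description of sequence, not a measured binding site.

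Library totals ran from 8348946 to 47762625 counts. The 8 shallow libraries, all under 12000000 counts, were the 6 DKI libraries, WT D1 number 4 and WT D3 number 4, so depth and the DKI genotype cannot be told apart except against the number 4 WT libraries. Srrt, the gene for ARS2, stood at 33.5 to 64.7 CPM (counts scaled to a common library size) in Ars2 KO D1 and at 131 to 244 in WT D1. At day 3 it stood at 105 to 146 in Ars2 KO and at 145 to 245 in WT, so the groups touched. Cd28 gave 476 and 481 CPM in the libraries labelled CD28 KO at day 1 and 387 and 411 in WT, so the gene count does not check that label. Summed T cell markers stayed between 2450 and 4070 CPM in every group. Summed B cell markers fell from 930 to 1020 CPM in WT D0 to 19.6 to 35.4 in WT D1, and were 110 to 150 in the group labelled CD28 KO at day 1. In such bulk samples, fewer cells of a type and less RNA per cell cannot be told apart.

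**Figure D1:**
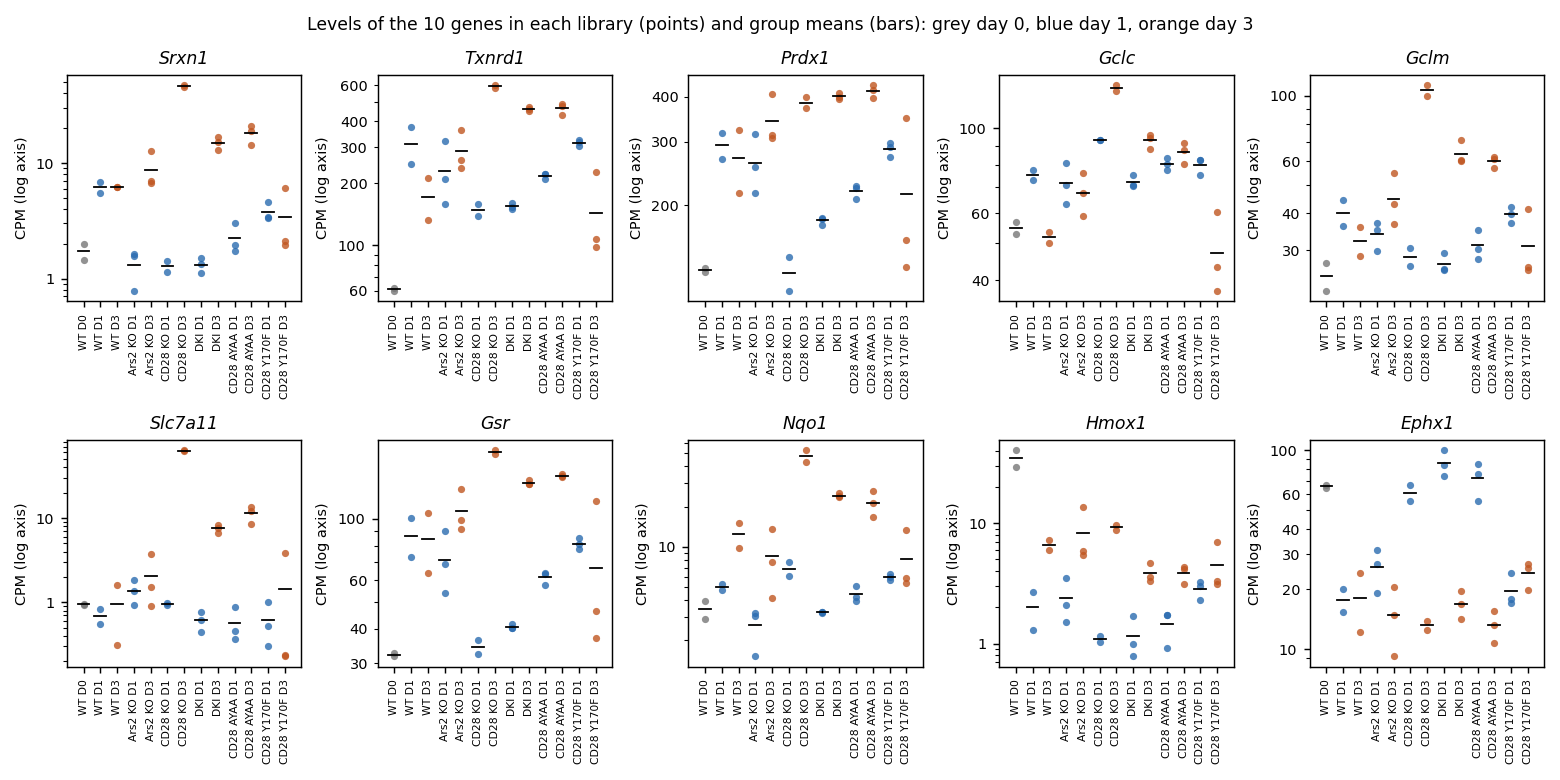
Level of each of the 10 genes in every library, as CPM on a log axis. Points are libraries, bars are group means, and colours mark unstimulated cells (grey), day 1 (blue) and day 3 (orange); Slc7a11 in CD28 KO D3 (62.8 CPM on average) and Ephx1 in DKI D1 (86.1 CPM) are the highest groups of their panels.

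The 10 genes differed widely in level. Per kilobase of exon, Prdx1 was the most abundant member in WT D1 at 96.3 CPM per kb, followed by Txnrd1 at 44.0 and Gsr at 31.6. Slc7a11 was the least abundant, at 0.0496 CPM per kb, behind Hmox1 at 1.14 and Srxn1 at 2.21. In unstimulated WT cells the order was different: Prdx1 came first at 43.5 CPM per kb, and Ephx1 (33.6) and Hmox1 (19.9) came next. The ratio of the highest to the lowest group mean was 111 for Slc7a11, 36.3 for Srxn1, 31.9 for Hmox1 and 18.5 for Nqo1. It was 2.7 for Gclc and 3.19 for Prdx1. A level of 0.45 CPM, the height of the filter, was reached in all 34 libraries by 9 members and in 29 libraries by Slc7a11, among them all libraries of 9 groups.

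The first question was how stimulation alone changed the members in WT cells. Among the 8 tested members, Txnrd1, Gsr, Prdx1, Gclm and Gclc rose from WT D0 to WT D1 and Hmox1 fell. That is 6 of 8 called at an adjusted p under 0.05 (edgeR's quasi-likelihood test, Benjamini-Hochberg over 18292 genes), where 51.3% of all tested genes were called, 24.2% higher and 27.2% lower.

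Txnrd1, thioredoxin reductase, returns oxidised thioredoxin to its reduced form with electrons from NADPH. It stood at 59.8 and 61.9 CPM in WT D0, 376 and 248 in WT D1, and 212 and 132 in WT D3. The stimulated WT libraries all lay above the unstimulated ones, with a log2 fold change of 2.36 ± 0.31 (SE) at day 1 (edgeR adjusted p = 7.5e-07). Prdx1, a peroxiredoxin that reduces hydrogen peroxide, rose by 1.15 ± 0.26 (adjusted p = 7.4e-04 in the same test). Gsr, which regenerates reduced glutathione, rose by 1.44 ± 0.32 (adjusted p = 5.3e-04). The rise was smaller for the modifier and catalytic subunits of glutamate-cysteine ligase, the first enzyme of glutathione synthesis: 0.72 ± 0.19 for Gclm and 0.47 ± 0.14 for Gclc.

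Srxn1, sulfiredoxin, repairs overoxidised peroxiredoxins. Its level was 1.46 and 1.98 CPM in WT D0, 6.91 and 5.53 in WT D1, and 6.15 in both WT D3 libraries. The stimulated libraries lay above the unstimulated pair on both days, by 1.87 ± 0.40 and 1.84 ± 0.40 on the log2 scale. Nqo1, a quinone reductase, was later: 2.9 and 3.94 CPM at D0, 5.26 and 4.79 at D1, and 15.1 and 9.8 at D3. It passed the test at day 3 (log2 1.89 ± 0.41, edgeR adjusted p = 3.6e-04) and not at day 1 (0.57 ± 0.42, adjusted p = 0.27). At day 3, 5 of 8 members were called against WT D0 (background 50.5%, of which 23.5% higher and 27.0% lower): Nqo1, Txnrd1, Gsr and Prdx1 higher, and Hmox1 lower. Gclm and Gclc were not called at that day.

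Hmox1, heme oxygenase, and Ephx1, the microsomal epoxide hydrolase, were the members whose mean in WT D0 lay above those of both WT D1 and WT D3. Hmox1 was at 40.4 and 29.3 CPM in WT D0 and at 2.7 and 1.29 in WT D1, a log2 change of -4.03 ± 0.46 (edgeR adjusted p = 9.9e-08). Across all 32 stimulated libraries it lay between 0.784 and 13.6 CPM, below both unstimulated libraries. Red pulp macrophages are a known source of Hmox1 in spleen, and 5 of their markers summed to 98.0 and 98.4 CPM in WT D0. In the stimulated groups that sum was at most 0.55 CPM, and all 5 markers were at 0 in WT D3. Myeloid markers summed to 310 to 314 CPM in WT D0 and to 7.15 to 42.0 in stimulated libraries. Erythroid markers summed to 105 to 367 CPM in WT D0 and to at most 47.6 after stimulation. The part of these cells in the Hmox1 decrease was not tested.

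Ephx1 was at 64.5 and 66.7 CPM in WT D0, 15.3 and 20.1 in WT D1, and 12.2 and 24.1 in WT D3. Both stimulated pairs lay below the unstimulated pair, with a log2 change of -1.90 ± 0.31 at day 1. Slc7a11, the cystine importer subunit that feeds glutathione synthesis, stayed near the bottom of the range: 0.951 and 0.936 CPM at D0, 0.828 and 0.553 at D1. Its D3 libraries held 1.59 and 0.313 CPM, which are 37 and 3 counts. Neither WT day differed from D0 in the test for Slc7a11 (log2 -0.36 ± 0.87 at day 1 and 0.25 ± 0.83 at day 3).

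Between days 1 and 3 in WT cells, Nqo1 (log2 1.32 ± 0.41, edgeR adjusted p = 0.016) and Hmox1 (1.61 ± 0.46, adjusted p = 0.0091) rose. Over the same days Gclc (-0.54 ± 0.15, adjusted p = 0.0054) and Txnrd1 (-0.86 ± 0.30, adjusted p = 0.03) fell. These 4 of 8 calls stand beside a background of 29.5% (15.5% higher and 14.0% lower), and between 1 and 3 of the 8 members were called without any 1 of the 4 WT libraries. With the number 1 WT libraries alone, which are both deep, the differences were 1.53 for Nqo1, 1.14 for Hmox1, -0.54 for Gclc and -0.82 for Txnrd1. That fit has 1 WT library per day, so it cannot decide whether the calls hold.

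The second question was how the genotypes differed from WT at day 1. In the libraries labelled CD28 KO, Gclm, Txnrd1, Gsr and Prdx1 were lower than in WT D1, and the same 4 were lower in DKI. Srxn1 was also lower and Ephx1 higher in both groups. In the CD28 AYAA group the fitted decreases of Srxn1, Gclm, Txnrd1, Gsr and Prdx1 were smaller, the Ephx1 difference lay between those of the other two groups, and edgeR called no tested member.

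Srxn1 was at 1.15 and 1.42 CPM in CD28 KO D1, 1.5, 1.12 and 1.33 in DKI D1, and 1.74, 1.97 and 3.02 in CD28 AYAA D1. It was at 0.781, 1.57 and 1.62 in Ars2 KO D1 and at 3.34, 3.39 and 4.59 in CD28 Y170F D1. All 14 mutant libraries of day 1 lay below both WT libraries (6.91 and 5.53). The log2 differences from WT were -2.28 ± 0.44 for the group labelled CD28 KO, -2.24 ± 0.43 for DKI, -2.24 ± 0.37 for Ars2 KO, -1.48 ± 0.36 for CD28 AYAA and -0.74 ± 0.35 for CD28 Y170F. The WT D0 pair (1.46 and 1.98) fell inside the range of the mutant libraries.

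Txnrd1 was at 139 and 159 CPM in CD28 KO D1, 153, 150 and 161 in DKI D1, and 222, 223 and 209 in CD28 AYAA D1. These 8 libraries lay below both WT D1 libraries, and above both WT D0 libraries. The difference from WT was -1.07 ± 0.30 for the group labelled CD28 KO (edgeR adjusted p = 0.005), -1.01 ± 0.27 for DKI (adjusted p = 0.0071) and -0.52 for CD28 AYAA (adjusted p = 0.24).

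Gsr showed the lowest levels in the libraries labelled CD28 KO at day 1, 32.4 and 36.5 CPM, close to the 31.8 and 32.6 of WT D0. DKI D1 gave 40.4, 40.2 and 41.5, CD28 AYAA D1 gave 57.6, 63.8 and 63.1, and WT D1 gave 101 and 72.6. The log2 difference was -1.34 ± 0.32 for the group labelled CD28 KO (edgeR adjusted p = 0.0014) and -1.10 ± 0.29 for DKI (adjusted p = 0.007). Prdx1 followed the same order: 116 and 144 CPM in CD28 KO, 177 to 185 in DKI, 208 to 227 in CD28 AYAA, and 317 and 269 in WT. Its differences were -1.17 ± 0.26 (adjusted p = 8.1e-04) and -0.69 ± 0.24 (adjusted p = 0.033) in the same test. Gclm differed less, by -0.51 ± 0.19 (adjusted p = 0.036) and -0.58 ± 0.18 (adjusted p = 0.018).

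The counts at day 1 were 4 of 8 lower in the group labelled CD28 KO (background 43.3% of genes called, 24.7% lower) and 4 of 8 lower in DKI (background 26.0%, 15.8% lower). The median log2 difference over the 8 members was -0.74 and -0.66, against 0.02 and 0.0 over all tested genes. For the first comparison, the calls of Txnrd1 and Gclm were lost without WT D1 number 1 and also without CD28 KO D1 number 1. Each of these fits leaves 1 library in a group. The Txnrd1 and Gclm differences were -0.68 and -0.29 in the former fit and -0.98 and -0.62 in the latter. Against WT D1 number 4 alone, the control of like depth, the differences of the 4 members for DKI ran from -0.79 (Gsr) to -0.38 (Gclm). Leaving out DKI number 1 or number 2 left 2 calls, since those of Gclm and Prdx1 were lost. The Prdx1 call was also lost without DKI number 3 (edgeR adjusted p = 0.066). The calls for DKI at day 1 were made with WT D1 number 1 among the controls. A fit with 1 control library cannot decide whether they hold at like depth.

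No tested member was called in the other day 1 comparisons with WT by edgeR, DESeq2 or limma-voom. For CD28 AYAA, 3.61% of genes were called, and 1 of the 8 members had an unadjusted p under 0.05 in edgeR (2 in DESeq2). For Ars2 KO, 0.399% of genes were called and 1 member, Nqo1, had an unadjusted p under 0.05 (log2 -0.96 ± 0.39, edgeR adjusted p = 0.37). For CD28 Y170F, 0.0547% of genes were called and no member had an unadjusted p under 0.05. Few genes of any kind were called in these 3 comparisons.

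Ephx1 moved the other way. It was at 66.8 and 55.5 CPM in CD28 KO D1, 84.6, 99.9 and 73.8 in DKI D1, and 84.7, 76.0 and 55.7 in CD28 AYAA D1. These 8 libraries, at 55.5 to 99.9 CPM, surround the unstimulated WT pair (64.5 and 66.7), and the other 24 stimulated libraries lay between 9.2 and 31.4. WT D1 held 15.3 and 20.1, CD28 Y170F D1 held 24.1, 17.8 and 17.1, and Ars2 KO D1 held 31.4, 26.8 and 19.1. The log2 differences from WT were 1.80 ± 0.31 for the group labelled CD28 KO, 2.30 ± 0.30 for DKI and 2.04 ± 0.30 for CD28 AYAA. They were 0.17 ± 0.28 for CD28 Y170F and 0.56 ± 0.28 for Ars2 KO. By day 3 no such group remained: CD28 KO had 13.9 and 12.5 CPM, DKI 16.8, 19.6 and 14.2, and CD28 AYAA 15.6, 13.2 and 10.7, beside 12.2 and 24.1 in WT. B cell markers were higher in the libraries labelled CD28 KO at day 1 (9 of 13 called, beside 18.6% of all genes called higher). None of the 13 was called in DKI or CD28 AYAA at day 1, beside 26.0% and 3.61% of all genes called. The part of B cells in the Ephx1 levels was not tested.

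**Figure D2:**
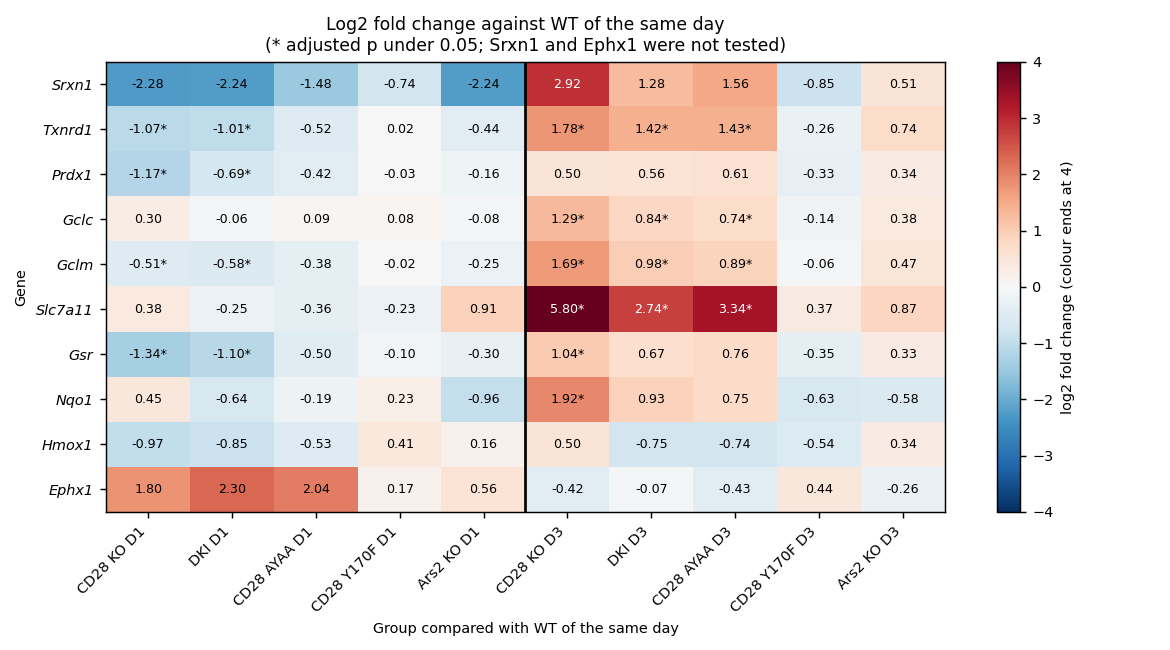
Log2 fold change of each of the 10 genes against WT of the same day, for 5 genotypes at day 1 and day 3, with the colour scale ending at 4. Asterisks mark an adjusted p under 0.05 in edgeR's test, and Srxn1 and Ephx1 were not tested; CD28 KO, DKI and CD28 AYAA are mostly below WT at day 1 and above it at day 3.

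The third question was the same comparison at day 3, where the called members were higher than in WT. In the libraries labelled CD28 KO, Nqo1, Gclm, Gclc, Txnrd1, Slc7a11 and Gsr were higher than in WT D3, which is 6 of 8 with a background of 20.0% called and 8.57% called higher. Gclm, Gclc, Txnrd1 and Slc7a11 were higher in DKI (4 of 8, background 23.4%, 10.3% higher), and the same 4 in CD28 AYAA (4 of 8, background 21.7%, 10.3% higher). No member was called lower in these 3 comparisons. The median log2 difference over the 8 members was 1.49, 0.88 and 0.76, against 0.01, -0.02 and -0.01 over all tested genes.

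Slc7a11 had the largest difference. It was at 63.9 and 61.8 CPM (1778 and 1510 counts) in CD28 KO D3, where WT D3 held 1.59 and 0.313. CD28 AYAA D3 held 12.1, 13.7 and 8.43 (265, 361 and 222 counts) and DKI D3 held 8.21, 6.68 and 7.68 (81, 71 and 83 counts). These 8 libraries, at 6.68 to 63.9 CPM, lay above the other 26 libraries of the series, which ran from 0.229 to 3.83. The log2 difference was 5.80 ± 0.78 for the group labelled CD28 KO (edgeR adjusted p = 1.6e-05), a fitted ratio of 55.8. It was 3.34 ± 0.73 for CD28 AYAA (adjusted p = 0.0018) and 2.74 ± 0.74 for DKI (adjusted p = 0.008).

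The WT level of Slc7a11 rests on the 37 and 3 counts of 2 libraries that differ among themselves, so these ratios are loosely set. Against WT D3 number 1 alone the CD28 AYAA difference was 2.84 (adjusted p = 0.051). Without WT D3 number 4 the DKI difference was 2.23 (adjusted p = 0.10).

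Srxn1 was at 45.4 and 47.5 CPM in CD28 KO D3, 16.7, 15.1 and 13 in DKI D3, and 14.3, 20.8 and 19.1 in CD28 AYAA D3. WT D3 held 6.15 in both libraries, so these 8 libraries all lay above WT at day 3 after lying below it at day 1. The log2 differences were 2.92 ± 0.38, 1.28 ± 0.36 and 1.56 ± 0.35. Ars2 KO D3 held 6.67, 12.6 and 7.05, also all above WT but by less, 0.51 ± 0.35. CD28 Y170F D3 held 6.07, 1.97 and 2.13, all below WT.

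Txnrd1 was at 603 and 583 CPM in CD28 KO D3, 472, 452 and 460 in DKI D3, and 477, 489 and 431 in CD28 AYAA D3, beside 212 and 132 in WT D3. The log2 differences were 1.78 ± 0.30 (edgeR adjusted p = 1.9e-04), 1.42 ± 0.28 (adjusted p = 6.4e-04) and 1.43 ± 0.28 (adjusted p = 7.4e-04). Among the other members of the thioredoxin arm, Prdx1 also had all 8 of these libraries (371 to 431 CPM) above the WT pair (324 and 217) with log2 differences of 0.50, 0.56 and 0.61, and was not called in edgeR. DESeq2 called it in CD28 AYAA (0.62, adjusted p = 0.044).

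In the glutathione arm, Gclm was at 109 and 100 CPM in CD28 KO D3, 60.4, 60.0 and 70.8 in DKI D3, and 61.9, 61.0 and 56.9 in CD28 AYAA D3, against 35.8 and 28.6 in WT D3. The differences were 1.69 ± 0.20 (edgeR adjusted p = 2.4e-06), 0.98 ± 0.18 (adjusted p = 3.4e-04) and 0.89 ± 0.18 (adjusted p = 9.3e-04). Gclc was at 130 and 125 CPM in the libraries labelled CD28 KO, 88.1 to 96.2 in DKI and 80.6 to 91.3 in CD28 AYAA, against 53.6 and 50.2 in WT. Its differences were 1.29 ± 0.15, 0.84 ± 0.14 and 0.74 ± 0.13, with adjusted p of 2.1e-06, 8.2e-05 and 3.6e-04 in the same test. Both subunits of the ligase were thus called in all 3 genotypes.

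Gsr stood at 177 and 172 CPM in CD28 KO D3, 133, 133 and 138 in DKI D3 and 141, 145 and 143 in CD28 AYAA D3, above WT at 105 and 63.5. In edgeR it was called in the group labelled CD28 KO (log2 1.04 ± 0.31, edgeR adjusted p = 0.020), and against WT D3 number 1 alone that difference was 0.73 (adjusted p = 0.22). In CD28 AYAA it was not called in edgeR (0.76) but was in DESeq2 (0.77, adjusted p = 0.036) and limma-voom (0.77, adjusted p = 0.048). The difference between the genotypes in Gsr was not called (DKI against CD28 KO, background 0.454%, 0.235% lower). In DKI Gsr was not called in the main edgeR fit (0.67 ± 0.29, adjusted p = 0.1). It was called by edgeR without the filter on low counts (0.66, adjusted p = 0.034). A fit of DKI D3 and WT D3 alone also called it (0.69, adjusted p = 0.02). Against WT D3 number 4 alone, the control of like depth, the differences were 1.08 for Gsr and 0.88 for Prdx1. That fit has 1 WT D3 library, so it cannot decide whether these differences hold.

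Nqo1 was at 52.8 and 42.9 CPM in CD28 KO D3, 25.1, 23.4 and 23.9 in DKI D3 and 26.3, 21.1 and 16.8 in CD28 AYAA D3, against 15.1 and 9.8 in WT D3. It was called in the group labelled CD28 KO (1.92 ± 0.39, edgeR adjusted p = 9.8e-04) and not in DKI (0.93 ± 0.36, adjusted p = 0.065) or CD28 AYAA (0.75, adjusted p = 0.14). DESeq2 called it in DKI (0.95, adjusted p = 0.04). Hmox1 was the member that did not follow. Of the 8 libraries, 2 lay above WT (8.8 and 9.62 CPM, labelled CD28 KO) and 6 below it (3.15 to 4.71 CPM), where WT held 5.94 and 7.2, and none of the 3 differences was called in edgeR.

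Cell markers also moved at day 3. NK cell markers summed to 20.0 to 26.1 CPM in CD28 KO D3, 4.9 to 7.26 in DKI D3 and 4.71 to 15.6 in CD28 AYAA D3, against 1.19 to 2.22 in WT D3. Of 13 T cell markers, 9 were called lower in the group labelled CD28 KO. In DKI 9 were lower and 1 higher, and in CD28 AYAA 6 were lower and 1 higher. Over all tested genes, 11.5%, 13.1% and 11.3% were called lower in these groups, and 8.57%, 10.3% and 10.3% higher. No B cell or red pulp macrophage marker was called in these comparisons. The part of these cells in the day 3 differences was not tested.

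The Ars2 KO and CD28 Y170F groups had no member called at day 3. For Ars2 KO the background was 12.9%, 3 members had an unadjusted p under 0.05, limma-voom also called 0, and DESeq2 called Gclc and Txnrd1. Txnrd1 was at 260, 365 and 237 CPM (0.74, edgeR adjusted p = 0.078) and Gclm at 43.1, 54.7 and 36.8 (0.47, adjusted p = 0.081), all above WT D3. Number 3 stood apart for Nqo1, at 13.6 CPM against 4.14 and 7.67. Without it, 4 members were called: Gclm, Gclc and Txnrd1 higher and Nqo1 lower (-1.11, adjusted p = 0.024), beside 19.6% of all genes called in that fit. Myeloid markers in Ars2 KO D3 summed to 20.8 to 36.5 CPM against 10.2 to 11.9 in WT D3. Of these 16 markers, 5 were called higher, beside 6.6% of all genes, and the part of myeloid cells was not tested.

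In CD28 Y170F at day 3 library number 1 stood apart from the others, which were close to each other. Txnrd1 was at 226 CPM in number 1 and at 107 and 97.8 in the others. Gsr was at 116, 46.4 and 37.0, and Slc7a11 at 3.83, 0.229 and 0.236, in the same order. With all 3 libraries, 0 of 8 members were called in edgeR and DESeq2 (background 0.0273%; 0 members at an unadjusted p under 0.05 in both tools, and 0 called and 1 at that level in limma-voom). Without number 1, 5 members were called lower than WT: Prdx1 (-0.88, adjusted p = 0.0041), Gsr (-1.02, adjusted p = 0.0059), Nqo1 (-1.18), Gclc (-0.36) and Txnrd1 (-0.75). The background of that fit was 6.34% of genes called and 4.61% called lower.

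**Figure D3:**
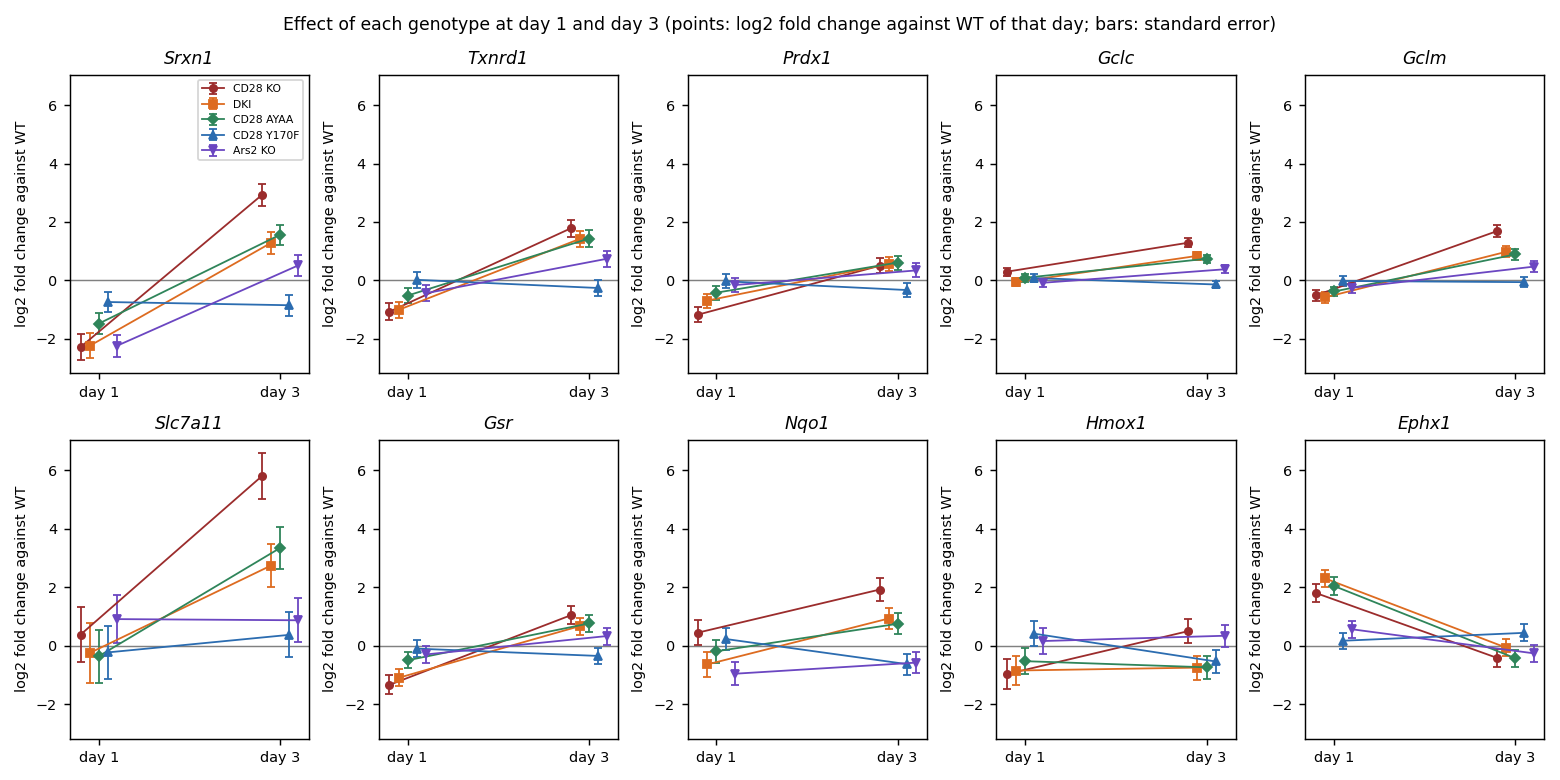
Log2 fold change against WT at day 1 and day 3 for each gene and genotype, with bars of 1 SE. Srxn1 in the group labelled CD28 KO goes from -2.28 to 2.92, and Ephx1 in the same group from 1.80 to -0.42.

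The change in the difference from WT between the days was tested directly, as the day 3 difference less the day 1 difference. For the group labelled CD28 KO, 7 of 8 members were called, all upward (background 35.3%, 20.5% upward), with Hmox1 left at 1.47 ± 0.67 (edgeR adjusted p = 0.091). The tested values ran from 0.99 ± 0.20 for Gclc (adjusted p = 4.4e-04) to 5.43 ± 1.24 for Slc7a11 (adjusted p = 0.0013), with 2.85 ± 0.42 for Txnrd1 and 2.20 ± 0.27 for Gclm. Of these 7, Nqo1, Gclc and Slc7a11 were above WT on both days, and the others went from below to above. For DKI, 6 of 8 were called upward (background 32.5%, 17.7% upward), among them Txnrd1 at 2.43 ± 0.39 (adjusted p = 5.1e-05) and Gsr at 1.77 ± 0.41 (adjusted p = 0.0017). Slc7a11 was at 2.99 ± 1.26 (adjusted p = 0.072) there. The Nqo1 change was not called by limma-voom in the group labelled CD28 KO (1.44, adjusted p = 0.055) or in DKI (1.53, adjusted p = 0.083).

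For CD28 AYAA, 6 of 8 were called upward (background 24.4%, 12.3% upward), with Txnrd1 at 1.95 ± 0.38 (adjusted p = 7.7e-04 in edgeR) and Gclm at 1.26 ± 0.25 (adjusted p = 7.9e-04). Against the number 1 WT libraries alone, Gclm and Txnrd1 were still called and the other 4 were not. The same count of 2 remained without WT D1 number 1 and without WT D3 number 4. The Srxn1 values, not tested, were 5.20 ± 0.58 for the group labelled CD28 KO, 3.52 ± 0.56 for DKI, 3.04 ± 0.51 for CD28 AYAA, 2.75 ± 0.51 for Ars2 KO and -0.12 for CD28 Y170F. Ephx1 had the opposite sign: -2.22 ± 0.44, -2.37 ± 0.41 and -2.47 ± 0.41 in the first 3.

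For Ars2 KO, 0 of 8 were called in edgeR (background 3.68%; 3 members at an unadjusted p under 0.05). limma-voom called 0, and DESeq2 called 1, Txnrd1 (1.17, adjusted p = 0.031). For CD28 Y170F, 0 of 8 were called, no member had an unadjusted p under 0.05 in any of the 3 tools, and 0.0% of all genes were called in edgeR.

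The 2 tail alleles of CD28 could be compared with each other directly, with the other groups entering the fit only through the shared estimate of spread. At day 3 CD28 AYAA exceeded CD28 Y170F in 7 of 8 members (background 36.8%, 17.6% higher): Nqo1, Gclm, Gclc, Txnrd1, Slc7a11, Gsr and Prdx1. Txnrd1 differed by 1.70 ± 0.25 (edgeR adjusted p = 1.0e-05), Gclc by 0.88 ± 0.12 (adjusted p = 4.2e-06) and Slc7a11 by 2.97 ± 0.58 (adjusted p = 2.4e-04). Srxn1 was higher in CD28 AYAA by 2.41 ± 0.31, and Hmox1 differed by -0.20 (adjusted p = 0.70). With any 1 library left out the count was 7. In a fit of these 2 groups alone it was 5, since Gsr (1.12, adjusted p = 0.071) and Prdx1 (0.96, adjusted p = 0.069) were not called. At day 1 Ephx1 was higher in CD28 AYAA by 1.87 ± 0.25 and Srxn1 was lower, with a log2 difference of -0.75 ± 0.34. No tested member was called at that day by edgeR, DESeq2 or limma-voom (background 4.35%; 3 members at an unadjusted p under 0.05 in edgeR and DESeq2).

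DKI and the group labelled CD28 KO were also compared. At day 1 Srxn1 differed by 0.04 and Ephx1 by 0.49 ± 0.27. Nqo1 was at 3.25 CPM on average in DKI and at 6.89 in the group labelled CD28 KO (-1.09 ± 0.41, edgeR adjusted p = 0.098) and Prdx1 at 182 and 130 (0.48 ± 0.24, adjusted p = 0.22), with libraries that did not overlap for either gene. In all, 0 of 8 members were called in edgeR (background 9.06%; 2 at an unadjusted p under 0.05). limma-voom called 0, and DESeq2 called Nqo1 and Gclc, both lower in DKI. At day 3 Slc7a11 was lower in DKI by a log2 difference of -3.06 ± 0.57 (edgeR adjusted p = 0.009). Among the 8 members, 5 had an unadjusted p under 0.05 in edgeR. Slc7a11 was the 1 member called of 8 (background 0.454%, 0.235% lower). That call was lost without either CD28 KO D3 library (adjusted p of 0.063 and 0.11) or without DKI D3 number 2 (0.078). DESeq2 and limma-voom each called 2 members, Slc7a11 and Gclm, with Gclm lower in DKI (-0.7 and -0.72). Srxn1 differed by -1.64 ± 0.32. All DKI libraries are shallow and both CD28 KO libraries are deep, so depth and genotype cannot be told apart here.

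Set against unstimulated WT cells, which the design names as the common reference, Hmox1 was lower in all 10 stimulated mutant groups. Among the other 7 tested members, all 7 were higher at day 3 in the groups CD28 KO, DKI and CD28 AYAA (8 of 8 called with Hmox1; backgrounds 52.1%, 58.1% and 60.2%). At day 1 the group labelled CD28 KO had Nqo1, Gclc and Txnrd1 higher (4 of 8 called, background 52.2%) and DKI had Gclc and Txnrd1 higher (3 of 8, background 49.1%). CD28 AYAA D1 had 5 of 8 called (background 50.0%), Ars2 KO D1 6 (53.6%) and CD28 Y170F D1 6 (54.7%), each with Hmox1 the 1 lower. At day 3 the counts were 7 of 8 in Ars2 KO (56.8%) and 5 of 8 in CD28 Y170F (53.8%). These comparisons share the WT D0 libraries.

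The order of the 13 group means shows which levels stood apart. For Srxn1 it ran from CD28 KO D3 (46.5 CPM), apart from the next groups, CD28 AYAA D3 (18.1) and DKI D3 (14.9), which overlapped each other. Below them and apart came Ars2 KO D3 (8.77), WT D1 (6.22) and WT D3 (6.15). The remaining 7 groups ran from 3.77 in CD28 Y170F D1 to 1.28 in CD28 KO D1, each overlapping its neighbour. For Ephx1 the only gap lay between 4 high groups (DKI D1 at 86.1, CD28 AYAA D1 at 72.2, WT D0 at 65.6 and CD28 KO D1 at 61.1) and 9 low ones (25.8 to 13.2).

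Txnrd1 had CD28 KO D3 (593) apart from CD28 AYAA D3 (466) and DKI D3 (462), these apart from 9 overlapping groups (315 to 144), and WT D0 (60.9) apart at the bottom. Hmox1 had WT D0 (34.8) apart at the top. The means of its day 3 groups (9.21 to 3.86) then came before those of its day 1 groups (2.84 to 1.09), but single libraries overlapped: Ars2 KO D1 reached 3.48 and CD28 AYAA D3 went down to 3.15. The highest group was CD28 KO D3 also for Nqo1 (47.8), Gclm (105), Gclc (127), Slc7a11 (62.8) and Gsr (174). For Prdx1 it was CD28 AYAA D3 (415), with 1 of 12 neighbouring pairs apart.

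Across the 13 group means, Gsr and Prdx1 were the most alike pair of members (Pearson r = 0.98 on log2 CPM). Srxn1 was close to Gclm (0.93), Gsr (0.92) and Nqo1 (0.91). Ephx1 had a negative r with all 9 others, from -0.88 with Gsr to -0.17 with Gclc. Hmox1 and Srxn1 gave 0.36 over all groups and 0.78 over the 12 stimulated groups. These are descriptions: the groups share days and libraries, and the set was named with such patterns known.

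Among 8442 genes at or above a mean log2 CPM of 3, the 5 most like Srxn1 over the group means were Gclm (r = 0.928), Golim4 (0.927), Cenpb (0.925), Esd (0.923) and Por (0.922). Over all 34 libraries Esd came first and Gclm second, and by Spearman's rank coefficient Gclm came 234th, so the order within the top is loose. Those most like Ephx1 were Nipal1 (0.96), Sigirr (0.96), Stxbp3 (0.944), Ripor2 (0.937) and Rarg (0.937). For the other members the nearest gene was Ubtd1 for Nqo1 (0.935), Golim4 for Gclm (0.968), Mafg for Gclc (0.88) and Upf1 for Txnrd1 (0.968). It was Ehbp1l1 for Hmox1 (0.954), Gclm for Slc7a11 (0.913), Cgas for Gsr (0.978) and Arf1 for Prdx1 (0.989).

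The wider pathway was described through 9 lists, which hold 110 tested genes when pooled. In the group labelled CD28 KO at day 1, 13 of these were called higher and 49 lower (56.4%, background 43.3%). At day 3, 10 were called higher and 25 lower (31.8%, background 20.0%), and the share called higher was near the 8.57% of all genes. The pooled counts were 6 higher and 31 lower in DKI D1, 1 and 4 in CD28 AYAA D1, 9 and 26 in DKI D3, and 10 and 21 in CD28 AYAA D3. Ars2 KO had 0 called at day 1 (9 of 110 at an unadjusted p under 0.05 in edgeR; DESeq2 and limma-voom counts were not taken for these lists). It had 4 higher and 14 lower at day 3. CD28 Y170F had 0 called on either day (3 and 6 at an unadjusted p under 0.05). The counts of each list below stand beside the share of all tested genes called higher and lower. At day 1 these were 18.6% and 24.7% in the group labelled CD28 KO, 10.3% and 15.8% in DKI, and 1.61% and 2.0% in CD28 AYAA. At day 3 they were 8.57% and 11.5%, 10.3% and 13.1%, and 10.3% and 11.3% in the same order, and 6.6% and 6.27% in Ars2 KO.

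**Figure D4:**
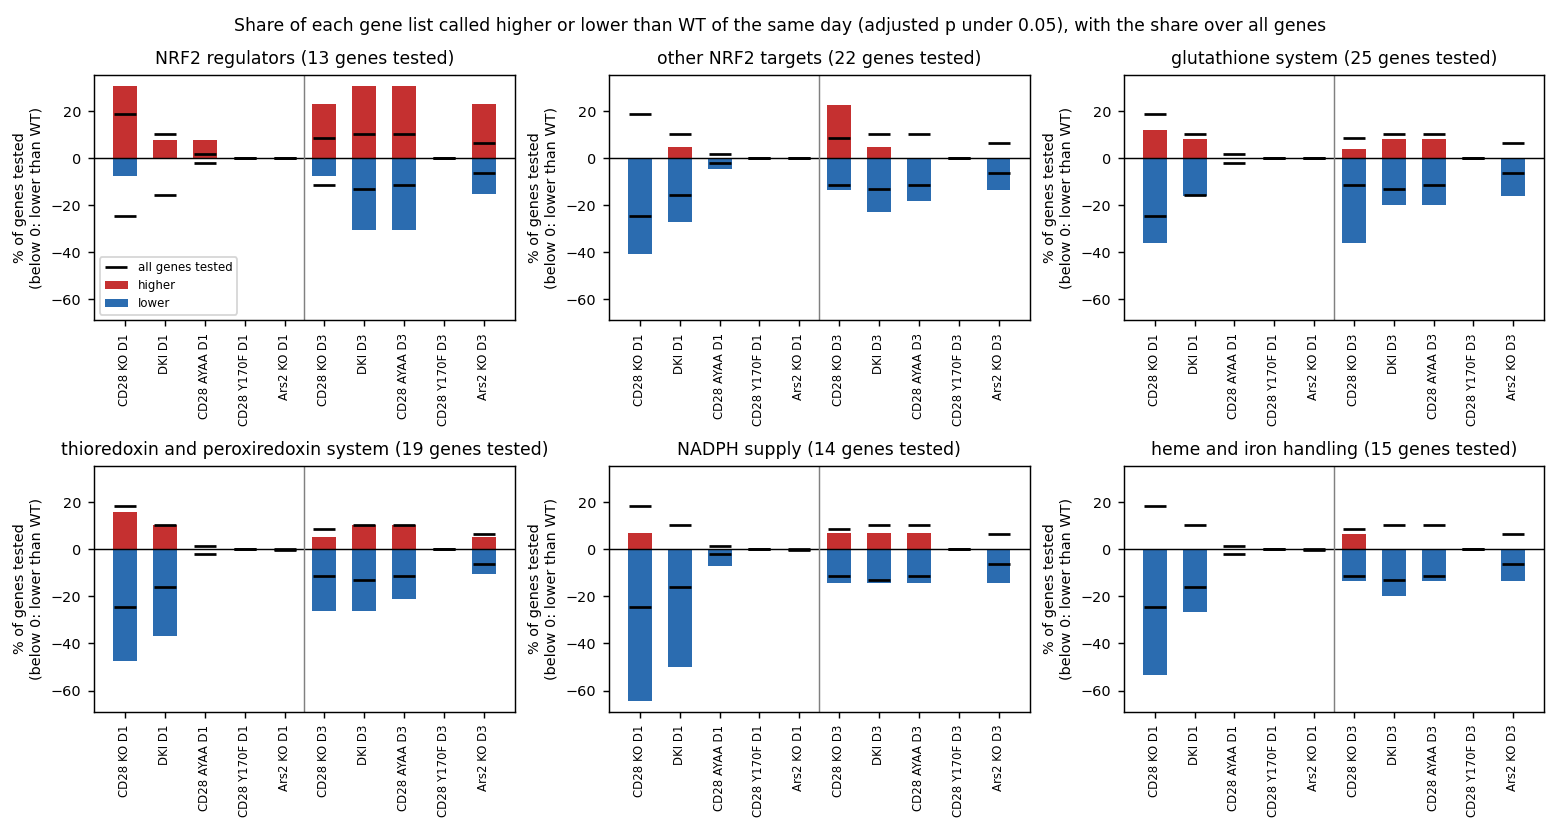
Share of the tested genes of 6 related lists called higher or lower than WT of the same day, in percent, with black dashes at the share over all tested genes. In CD28 KO D1 the lower calls prevail in each list but the NRF2 regulators, where 4 of 13 were higher and 1 lower.

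Of the 13 NRF2 regulators, the repressor Bach1 was higher at day 1 in the libraries labelled CD28 KO (log2 1.10 ± 0.13, edgeR adjusted p = 5.5e-07), DKI (0.66 ± 0.12, adjusted p = 5.1e-04) and CD28 AYAA (0.46 ± 0.12, adjusted p = 0.039). Nfe2l2 itself was higher in the first (0.55 ± 0.14, adjusted p = 0.0025) and not called in the other two. Bach1 was higher at day 3 too in the libraries labelled CD28 KO (0.54 ± 0.13, edgeR adjusted p = 0.0051). At day 3 the small MAF gene Mafg was higher in CD28 KO (1.03 ± 0.16, adjusted p = 9.9e-05), DKI (0.89 ± 0.15, adjusted p = 1.7e-04) and CD28 AYAA (0.86 ± 0.15, adjusted p = 2.9e-04). Bach2, a repressor related to Bach1, was lower in all 3 at day 3 (-0.72, -0.77 and -0.81). Counts at day 3 were 3 higher and 1 lower in CD28 KO, 4 and 4 in DKI, 4 and 4 in CD28 AYAA, and 3 and 2 in Ars2 KO.

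Of 22 tested NRF2 targets outside the set, 9 were lower and 0 higher in CD28 KO D1. They included the thioredoxin gene Txn1 (log2 -1.79 ± 0.26), the pentose phosphate enzymes Tkt (-1.46) and G6pdx (-1.39), and the esterase gene Esd (-1.19). DKI D1 had 6 lower and 1 higher, and CD28 AYAA D1 had 1 lower, Esd. At day 3 CD28 KO had 5 higher and 3 lower, with Esd at 0.89 ± 0.14 (edgeR adjusted p = 7.8e-05) and the glutathione exporter gene Abcc1 at 0.52 (adjusted p = 0.0046). Ftl1, a ferritin subunit with near-identical copies in the genome and so an uncertain count, was at 0.73. DKI D3 had 1 higher and 5 lower, CD28 AYAA D3 0 and 4, and Ars2 KO D3 0 and 3. Gpx4, which reduces lipid peroxides, was lower in all 4 (-0.77, -0.72, -0.54 and -0.52).

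Of 25 glutathione genes, CD28 KO D1 had 3 higher and 9 lower, with the glutaredoxin Glrx at -1.42 ± 0.16 and the microsomal transferase Mgst2 at 1.54 ± 0.30. At day 3 it had 1 higher and 9 lower. Counts in DKI were 2 higher and 4 lower at day 1 and 2 and 5 at day 3, and in CD28 AYAA 0 and 0, then 2 and 5. Gss, the enzyme that follows glutamate-cysteine ligase, was lower in DKI D3 (-0.49) and CD28 AYAA D3 (-0.60 ± 0.12, edgeR adjusted p = 0.0011), where Gclm and Gclc were higher.

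Of 19 thioredoxin and peroxiredoxin genes, 3 were higher and 9 lower in CD28 KO D1, with Prdx2 at -1.13 ± 0.10 (edgeR adjusted p = 6.3e-09) and mitochondrial Prdx3 at -1.33 ± 0.15 (adjusted p = 3.1e-07). Sesn1, a sestrin, was higher at 1.80 ± 0.23. At day 3 the counts were 1 higher and 5 lower in CD28 KO, 2 and 5 in DKI and 2 and 4 in CD28 AYAA. Mitochondrial thioredoxin Txn2 was higher in all 3 at that day (0.55, 0.64 and 0.63) and Sesn1 was lower (-0.92, -1.34 and -1.12).

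Of 14 NADPH supply genes, 9 were lower and 1 higher in CD28 KO D1, led by Mthfd2, a mitochondrial folate enzyme (-2.27 ± 0.25, edgeR adjusted p = 1.6e-07). DKI D1 had 7 lower and CD28 AYAA D1 had 1 lower, Mthfd2 again. At day 3 each of the 3 genotypes had 1 higher and 2 lower. The 2 lower ones were the isocitrate dehydrogenases Idh1 (-1.96, -2.00 and -1.15) and Idh2 (-0.82, -0.80 and -0.56). The higher one was G6pdx in CD28 KO (0.83, adjusted p = 0.0091) and Mthfd1 in DKI and CD28 AYAA (1.39 and 1.30).

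Of 15 heme and iron genes, 8 were lower in CD28 KO D1 and 4 in DKI D1, with the transferrin receptor Tfrc at -2.68 ± 0.42 and -1.76 ± 0.35. Day 3 had 1 higher and 2 lower in CD28 KO, 0 and 3 in DKI and 0 and 2 in CD28 AYAA. Of 5 superoxide and peroxide enzymes, 3 were lower in CD28 KO D1 and 2 in DKI D1, with Sod1 at -0.97 and -0.74. At day 3 the copper chaperone Ccs was lower in CD28 KO (-1.03 ± 0.22), DKI (-0.74) and CD28 AYAA (-0.69).

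Among the other epoxide hydrolases, Ephx2 and Ephx3 were at 0.32 CPM or less in the day 1 and day 3 groups compared here. Neither was called in any genotype comparison with WT. These levels lie below the 0.45 CPM of the filter, so the lack of a call does not say whether they followed Ephx1. Slc7a11 is also a known target of ATF4, the factor of the amino acid response, whose part in the Slc7a11 levels was not tested. Of 13 tested ATF4 pathway genes, 9 were lower and 2 higher in CD28 KO D1, with Psat1 at -2.47 ± 0.37 (edgeR adjusted p = 9.8e-06) and Asns at -3.77 ± 0.77 (adjusted p = 2.8e-04). DKI D1 had 5 lower and 1 higher, and CD28 AYAA D1 had 2 lower, Asns and Atf3. At day 3, 0 of the 13 were called higher by edgeR in the 3 genotypes, and 3, 3 and 2 were lower. Ddit4 was among them in each (-2.36, -1.44 and -1.65), as was Trib3 (-1.61, -1.20 and -0.98).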

How the data were processed

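RNA-seq of mouse splenic T cells was deposited by the authors as 1 table of expected counts for 48526 genes in 34 libraries. Per the labels, libraries were ribosomal RNA depleted, stranded and paired-end. The submitters' processing notes name bcl2fastq 2.20, FastQC, STAR, RSEM and limma, with builds mm10 and GRCm38. The annotation release and strand setting are not given in the sources used here. Values were whole numbers in 83.7% to 90.8% of entries per library. Gene IDs matched GENCODE M21 for 99.2% of genes.

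Expected counts were rounded and filtered with filterByExpr, which left 18292 genes. They were scaled by TMM (factors 0.83 to 1.11) and fitted in edgeR 4.0.16 (R 4.3.3) with 1 mean per group over all libraries. Genes at a Benjamini-Hochberg adjusted p under 0.05 over all tested genes were called. The SE is the absolute log2 fold change divided by the square root of the F statistic. CPM values use TMM-scaled library sizes, except the summed cell markers and the counts at the 0.45 CPM filter level, which use total counts. The test was tried on simulated data. Alternatives were DESeq2 1.42.0, limma-voom (limma 3.58.1), DESeq2-type size factors, no filter, fits of the compared groups alone, a replicate block, WT libraries of like depth and leaving out each library.

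The members and lists were chosen with earlier results of these data known. The named genes were the 10 members, up to 4 genes per list and comparison with the smallest p, the genes most alike by Pearson r (prior count 1), and Srrt and Cd28 to check labels. Markers of T, B, NK, myeloid, erythroid and red pulp macrophage cells were summed. Same-numbered CD28 AYAA and CD28 Y170F libraries deviated together at day 1 (r = 0.25, 0.29 and 0.34), though no label says that the numbers mark a shared source. At day 3 these values were 0.01, 0.05 and 0.15. The CD28 KO D3 columns are numbered otherwise than their sample titles and carry no pairing.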

Additional observations from a re-analysis of the deposited data

Results flagged for a closer look

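Results are listed here because the difference from WT changed between day 1 and day 3, by the test of the change itself or because every library lay on opposite sides of WT on the 2 days. Each value is the day 3 log2 difference from WT less that of day 1. Some were chosen for this pattern, so the listing adds no support.

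For Srxn1 the value was 2.75 for Ars2 KO, 5.20 for the group labelled CD28 KO, 3.52 for DKI and 3.04 for CD28 AYAA. In these 4 genotypes every library lay below WT at day 1 and above it at day 3, and the difference was not tested. Hmox1 gave 1.47 in the group labelled CD28 KO, with every library below WT at day 1 and above it at day 3. That change did not pass the test (edgeR adjusted p = 0.091).

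In the group labelled CD28 KO the change passed the test for Slc7a11 (5.43), Txnrd1 (2.85), Gsr (2.38), Gclm (2.20), Prdx1 (1.68), Nqo1 (1.47, edgeR adjusted p = 0.045) and Gclc (0.99). In DKI it passed for Txnrd1 (2.43), Gsr (1.77), Nqo1 (1.57, edgeR adjusted p = 0.032), Gclm (1.56), Prdx1 (1.25) and Gclc (0.90). The Nqo1 change did not pass in limma-voom in either group (adjusted p of 0.055 and 0.083). For DKI it also did not pass in edgeR without any 1 DKI D1 library (adjusted p of 0.054 to 0.056). For the group labelled CD28 KO, leaving out a library leaves 1 in its group. The Nqo1 change there was 1.31 without CD28 KO D1 number 1 and 1.66 without number 2. Without WT D3 number 4 it was 1.22. Such fits cannot decide whether the CD28 KO call holds. In CD28 AYAA the change between days passed for Slc7a11 (3.71), Txnrd1 (1.95), Gclm (1.26), Gsr (1.26), Prdx1 (1.03) and Gclc (0.64).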

How the results depend on the processing

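Counts are of the 8 tested members. With DESeq2-type size factors each count stayed within 1.5 times its value. DESeq2 gave 2 for DKI against CD28 KO at day 1 (0 in the report), 2 for Ars2 KO D3 (0), 2 for DKI against CD28 KO at day 3 (1) and 1 for the Ars2 KO change between days (0). DESeq2 gave 6 for CD28 AYAA D3 (4). limma-voom gave 2 for DKI against CD28 KO at day 3. Without the filter the counts were 1 for DKI against CD28 KO at day 1, 1 for Ars2 KO D3, 7 for DKI D3 (4), 4 for DKI against CD28 KO at day 3 and 1 for the Ars2 KO change between days. Fits of the compared groups alone gave 2 for WT D3 against D1 (4), 3 for DKI against CD28 KO and 5 for CD28 AYAA against CD28 Y170F at day 1 (0 and 0), 8 for DKI D3, 7 for CD28 AYAA D3 (4) and 7 for DKI against CD28 KO at day 3. Against WT D0 they gave 5 for DKI D1 (3) and 2 for CD28 Y170F D3 (5). With WT libraries of like depth the counts were 0 for WT D3 against D1, 0 for DKI D1 (4) and 2 for the CD28 AYAA change between days (6). The fits with WT libraries of like depth hold 1 WT library for each of days 1 and 3. Beyond fewer or more samples in a fit, the cause was not tested.

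Without replicate libraries, left out in turn, the counts ran from 4 to 6 for WT D1 and for WT D3 against D0, 1 to 3 for WT D3 against D1, 2 to 4 for CD28 KO D1, 0 to 4 for DKI D1, 0 to 4 for Ars2 KO D3, 5 to 6 for CD28 KO D3, 3 to 6 for DKI D3, 4 to 6 for CD28 AYAA D3, 0 to 5 for CD28 Y170F D3 and 0 to 1 for DKI against CD28 KO at day 3. Against WT D0 they ran from 4 to 6 for Ars2 KO D1, 5 to 6 for Ars2 KO D3, 3 to 3 for CD28 KO D1, 2 to 3 for DKI D1, 3 to 5 for CD28 AYAA D1, 5 to 6 for CD28 Y170F D1 and 3 to 6 for CD28 Y170F D3. For the changes between days they ran from 0 to 2 for Ars2 KO, 5 to 7 for CD28 KO, 4 to 7 for DKI and 2 to 6 for CD28 AYAA. Slc7a11 in CD28 Y170F D3 against WT D0 went from 0.62 (edgeR adjusted p = 0.48) to -2.00 (adjusted p = 0.02) without CD28 Y170F D3 number 1, and to 1.12 without number 2.

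With the replicate number as a block, DKI D3 had 3 members called, since Slc7a11 went to 2.61 (edgeR adjusted p = 0.055), and WT D3 against D0 had 6. Within CD28 AYAA and CD28 Y170F the block left 0 and 7 called. With WT libraries of like depth, counts of all genes called went from 4765 to 697 for DKI D1, 2353 to 740 for Ars2 KO D3, 3965 to 1368 for CD28 AYAA D3, 3664 to 2128 for CD28 KO D3, 661 to 1156 for CD28 AYAA D1 and 4455 to 2374 for the CD28 AYAA change between days. Fits of the compared groups alone gave 0 for Ars2 KO D3, 1765 for DKI against CD28 KO at day 3 (83), 4381 for the same at day 1 (1657) and 3502 for CD28 AYAA against CD28 Y170F at day 1 (796). With the block, CD28 AYAA D1 had 1810 (661), and without CD28 Y170F D3 number 1 that group had 1159 (5). Depth limits Slc7a11 most: 3 counts in 1 WT D3 library and 5 in each of 2 CD28 Y170F D3 libraries.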
